A study of Homo sapiens with 4 samples.

Results

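MS751 is an established human cell line from a squamous cell carcinoma of the cervix. The comparison described here sets the MS751 library transfected with siDDX24-1, a small interfering RNA against the DDX24 transcript, beside the MS751 library transfected with a control siRNA (siControl). The labels give the siDDX24-1 cells the genotype DDX24 knockdown and the siControl cells the genotype WT, and both were sampled on day 2. These are 2 of the 4 libraries of the series, chosen by cell line, siRNA and day, and all 12037 protein-coding genes of the MS751 count table were used. Cells of both groups were kept in DMEM with 10% fetal bovine serum and were transfected in 2 mL of medium with siRNA (5 µL of a 20 µM stock) carried by Lipofectamine 3000 (5 µL). Both groups therefore carry an siRNA and the transfection reagent, and neither was left untransfected. There was 1 library a group and 1 siRNA sequence against DDX24, so no difference below has a replicate check, none carries a p-value, and effects of lowering DDX24 cannot be told apart from other effects of that siRNA or from differences between cultures. Intervals beside a fold are exact 95% intervals of the ratio of counts and cover counting error only.

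DDX24 belongs to the DEAD-box proteins, helicases that use ATP to remodel RNA and RNA-protein complexes, and it has been linked to ribosome assembly and to the regulation of p53. A small interfering RNA guides the RNA-induced silencing complex to a matching transcript, which is then cut, and a given siRNA can also lower other transcripts through short matches. Gene families that share a machine, a pathway or a transcription factor often vary together, and the lists below were built from such families.

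Depth over the listed genes was 14664797 counts for siDDX24-1 and 13160487 for siControl, and mitochondrially encoded genes took 12.2% of them with siDDX24-1 and 12.1% with siControl. No gene had fewer than 14 counts in either library, so genes near silence in one library are not among those compared. None of 12 markers of squamous epithelium was listed, and the keratins listed were KRT8, KRT10, KRT18 and KRT222. Of 13 markers of simple epithelium 6 were listed, with a summed level of 188 CPM (counts per 1000000 of the scaled library total) in the siDDX24-1 library and 177 CPM in the siControl library. Of these 6, 5 had folds below 0, with a median of -0.51. That median was -0.32 among those averaging 5 CPM or more, and -1.34 over the 2 members that overlap no other gene. ELF3 (-2.55) and CLDN7 (-1.68) were at least 2-fold lower. They had 1.23 and 1.58 CPM with siDDX24-1 and 7.56 and 5.22 CPM with siControl. Of 13 fibroblast markers 8 were listed, summing to 830 CPM with siDDX24-1 and 862 CPM with siControl, with COL3A1 at 476 CPM in the siDDX24-1 library and 362 CPM in the siControl library. In the fibroblast list COL1A1 (-1.86) and S100A4 (-1.58) were at least 2-fold lower and none was at least 2-fold higher. The squamous label is thus not borne out by these markers, and the cells are called MS751 throughout. How far marker levels bear on the gene lists below was not tested. Of 15 leukocyte markers 1 was listed (CD68), and of 17 endothelial markers 3 were (ESAM, FLT4 and STAB1).

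DDX24 (ENSG00000089737, GRCh38 chromosome 14, 94048291 to 94081245, minus strand) had 993 counts in the siDDX24-1 library and 2072 in the siControl library, or 68.0 CPM with siDDX24-1 and 157 CPM with siControl. The log2 fold of siDDX24-1 over siControl was -1.20 (95% interval -1.31 to -1.09). OTUB2 shares exon positions with DDX24, and the sources used here do not state to which gene such reads were assigned. In such bulk RNA, fewer cells that express a gene and less RNA per cell cannot be told apart. Across all genes, 450 (3.74%) passed 2-fold upwards in the siDDX24-1 library and 1029 (8.55%) passed it downwards. Past 4-fold there were 39 higher and 150 lower.

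The fold depended on base composition. Transcripts rich in G and C were lower as a class in the siDDX24-1 library, and transcripts poor in them were slightly higher. In the tenth of genes with the lowest GC content (median 38.9%) the median log2 fold was 0.24, and 2.00% of genes were at least 2-fold lower. In the tenth with the highest GC content (median 64.8%) it was -0.55, and 23.6% were at least 2-fold lower. Across genes, which are not independent replicates, the Spearman correlation of fold with GC content was -0.38. For each gene the fold was therefore also expressed relative to genes of like GC content, by subtracting a smooth trend. This GC-adjusted fold has a median of 0.05 over all genes, and its medians in the 10 GC bins lay between 0.02 and 0.10. On that scale 474 genes (3.94%) lay 2-fold or more above genes of like GC content and 736 (6.12%) 2-fold or more below them, and DDX24 was at -1.25. The share of lower genes among those past 2-fold was 60.8% with the trend removed and 69.6% without.

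**Figure D1:**
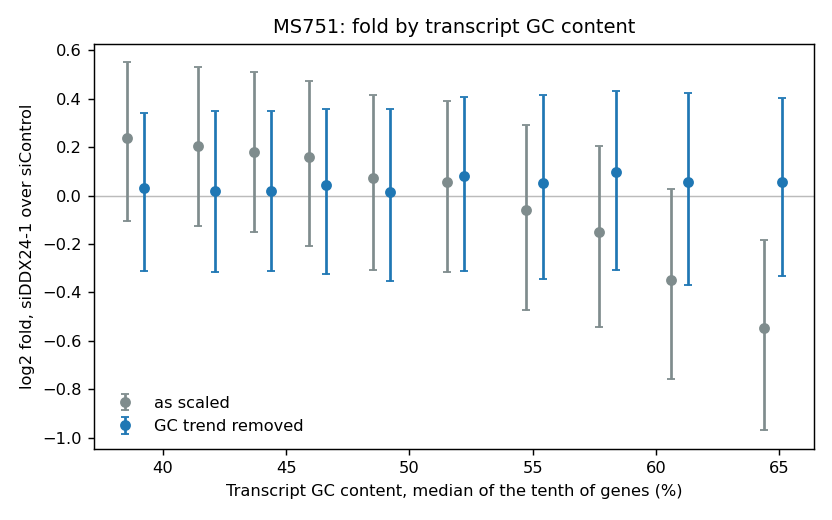
Log2 fold of siDDX24-1 over siControl in MS751 for 10 equal groups of genes by transcript GC content, as points at the median with bars from the lower to the upper quartile of genes, as scaled (grey) and with the GC trend removed (blue). The grey medians run from 0.24 in the tenth with the least GC to -0.55 in the tenth with the most, while the blue medians all lie between 0.02 and 0.10.

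Of the genes at least 2-fold lower, 658 (63.9%) were at least 2-fold lower on both scales, and of those higher 338 (75.1%) were higher on both. Their base composition differed, with a median GC content of 45.6% for the genes at least 2-fold higher, 59.0% for those at least 2-fold lower and 50.3% for all genes. The trend also appeared between chromosomes. Chromosome 19, the most GC-rich by its genes (median 60.3%), had 923 listed genes with a median log2 fold of -0.30, and 160 of them (17.3%) were at least 2-fold lower. With the trend removed its median was 0.03 and 81 genes (8.79%) were lower, so its median no longer stood below the others while its share of lower genes was still the highest of the chromosomes compared. Chromosome 22 likewise had medians of -0.15 as scaled and 0.07 adjusted. Level was a second axis. In the tenth of genes with the lowest mean level (up to 6.12 CPM) the median was -0.34 as scaled and -0.25 adjusted, against 0.08 and 0.11 in the tenth with the highest.

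**Figure D2:**
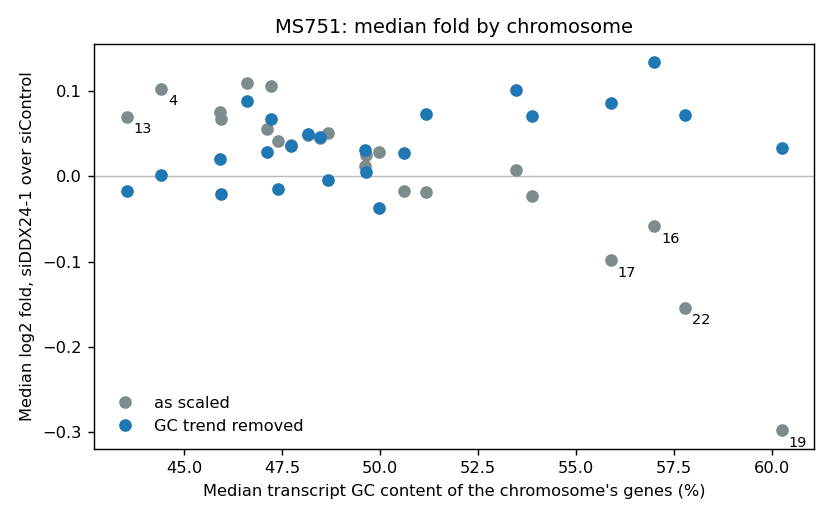
Median log2 fold of the genes of each chromosome with at least 50 listed genes, by their median transcript GC content, as scaled (grey) and with the GC trend removed (blue). Chromosomes 16, 17, 19 and 22, at the GC-rich end, have the lowest grey medians, down to -0.30 for chromosome 19, and blue medians between 0.03 and 0.13.

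In all, 121 lists covering 4642 of the genes were compared, 117 of them with at least 5 listed members. Lists are described by their counts and medians on both scales beside those of all genes, with no test of a list. Some genes belong to several lists, such as BHLHE40 in the hypoxia and clock lists, so lists are not separate observations. As scaled, 19 lists had a median of at least 0.2 and 32 a median of -0.2 or below. With the GC trend removed there were 21 and 16, so the excess of lower lists shrank while the number of higher lists did not. The lists with the highest adjusted medians, after S phase and ribosome assembly, belonged to the nuclear pore, cohesin and condensin, the mitochondrial aminoacyl-tRNA synthetases, the CCT chaperonin, the nuclear transport receptors and the cytosolic aminoacyl-tRNA synthetases. Those with the lowest, after the immediate early genes, belonged to the hypoxia response, squamous differentiation, cholesterol synthesis and the proteases with their inhibitors. S phase genes had 12 of 53 members (22.6%) at least 2-fold higher and none lower (median 0.66 as scaled and adjusted). Ribosome assembly factors had 15 of 65 (23.1%) higher and none lower (0.65 and 0.60). Immediate early genes had 1 of 36 higher and 20 (55.6%) lower (-1.12 and -0.80). These counts are as scaled, where 3.74% of all genes were at least 2-fold higher and 8.55% lower. The other lists are described below.

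**Figure D3:**
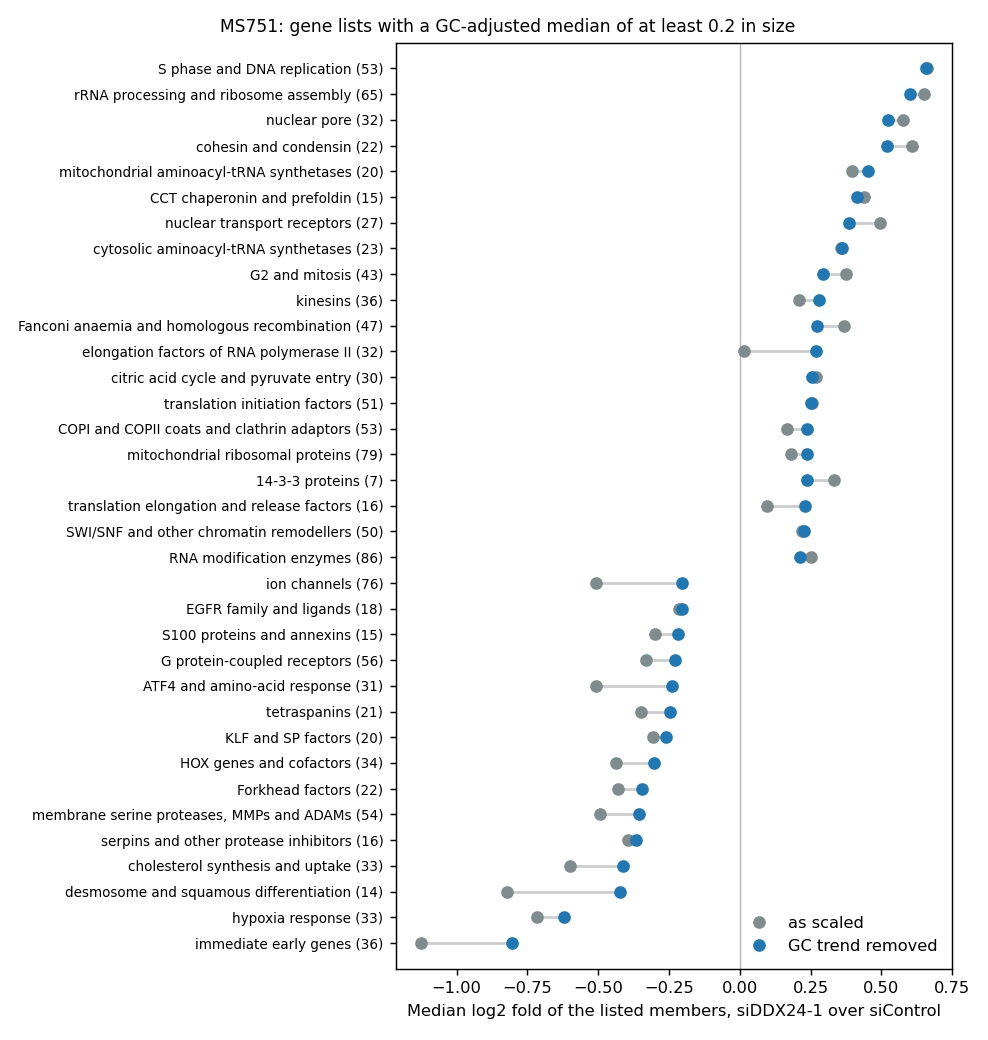
Median log2 fold of the listed members, siDDX24-1 over siControl, for every gene list outside the cell type markers whose GC-adjusted median was at least 0.2 in size, as scaled (grey) and with the GC trend removed (blue), with the number of members in brackets. The top and bottom lists are S phase and DNA replication (0.66 on both scales) and immediate early genes (-1.12 and -0.80), and the grey point of ion channels lies at -0.51 against a blue one at -0.20.

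Genes of the nuclear pore and of transport through it were higher in the siDDX24-1 library. The pore is a ring of nucleoporins in the nuclear envelope, and importins and exportins carry proteins and RNA across it. Of 32 nucleoporin genes 28 had folds above 0, each with a counting interval above 0, and 4 (12.5%) were at least 2-fold higher, against 3.74% of all genes. The list median was 0.58 as scaled and 0.52 adjusted, and on the adjusted scale none of the 32 reached 2-fold, so the list differed by many moderate folds in 1 direction. RANBP2, which forms the cytoplasmic filaments, had 439 CPM in the siDDX24-1 library and 209 CPM in the siControl library (log2 fold 1.07, adjusted 0.90). NUP205, of the inner ring, had 372 CPM with siDDX24-1 and 182 CPM with siControl (1.03, adjusted 0.86), NUP153, of the nuclear basket, 171 CPM with siDDX24-1 and 84.7 CPM with siControl (1.01, adjusted 0.84), and NUP35 28.8 CPM with siDDX24-1 and 13.4 CPM with siControl (1.10, adjusted 0.92). The 4 nucleoporin genes below 0 were SEC13, NUP58, POM121C and AAAS, between -0.20 and -0.04 as scaled.

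The 27 transport receptors and their partners had a median of 0.49 as scaled and 0.38 adjusted, with 24 above 0. As scaled 4 (14.8%) were at least 2-fold higher, against 3.74% of all genes. CSE1L, which returns importin alpha to the cytoplasm, had 443 CPM in the siDDX24-1 library and 178 CPM in the siControl library (log2 fold 1.31, 95% interval 1.24 to 1.38, adjusted 1.10). IPO5, an importin of ribosomal proteins and histones, had 222 CPM with siDDX24-1 and 99.5 CPM with siControl (1.16, adjusted 1.06). IPO11 was at 1.08 and XPO4 at 1.03, and exons of IPO11 overlap KIF2A. At the other end NXT1, a cofactor of mRNA export, was at -0.48 and TNPO2 at -0.14, while NXF1, the main mRNA export receptor, was at 0.08. The list thus held receptors near 0 beside those past 2-fold.

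Genes of the ring complexes that hold and fold chromosomes were also higher. Cohesin keeps sister chromatids together and shapes loops, and condensin compacts mitotic chromosomes. Folds were above 0 for 20 of their 22 listed genes, the median being 0.61 as scaled and 0.52 adjusted, and 1 was at least 2-fold higher. That was SMC1A, a core cohesin subunit, with 471 CPM in the siDDX24-1 library and 196 CPM in the siControl library (1.26, adjusted 1.20). Its exons overlap RIBC1, and 12 of the 22 genes share no exon with another gene. SMC3, the partner of SMC1A, had 162 CPM with siDDX24-1 and 100 CPM with siControl (0.70, adjusted 0.49), and the condensin subunit SMC2 a fold of 0.92 (adjusted 0.71). RAD21, the cohesin subunit that closes the ring, stood apart with 295 CPM with siDDX24-1 and 317 CPM with siControl (-0.11, adjusted -0.28), as did the acetyltransferase ESCO1 at -0.53, while its relative ESCO2 was at 0.94.

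Lists of mitosis and DNA repair had smaller medians in the same direction. For G2 and mitosis the median was 0.38 (adjusted 0.29), 37 of 43 folds lay above 0, and 1 was at least 2-fold higher, the kinase gene AURKA, with 128 CPM in the siDDX24-1 library and 51.9 CPM in the siControl library. Fanconi anaemia and homologous recombination genes, which repair crosslinks and breaks at forks, had a median of 0.37 (adjusted 0.27). As scaled 5 of 47 (10.6%) were at least 2-fold higher, against 3.74% of all genes. With the trend removed 3 (6.38%) were, against 3.94% of all genes. FANCI, which with FANCD2 forms the clamp that marks crosslinks, had a fold of 1.11, the nuclease gene EXO1 32.1 CPM with siDDX24-1 and 14.1 CPM with siControl (1.19), and FANCB 5.62 CPM with siDDX24-1 and 1.44 CPM with siControl (1.91). Exons of FANCI and of its partner FANCD2 (1.03) overlap those of other genes. Kinesins had 3 of 36 higher (8.33%) and 2 lower (5.56%, against 8.55% of all genes as scaled). Their median was 0.21 (adjusted 0.28, or 0.10 adjusted without members that overlap other genes). KIF24 was at 1.52 and KIFC2 at -2.16, so that list held folds in both directions. Exons of KIF24 overlap UBAP1 and those of KIFC2 overlap FOXH1.

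Genes of protein folding in the cytosol were higher in part. The CCT chaperonin folds actin and tubulin, and prefoldin delivers them to it. The 15 listed genes had a median of 0.44 (adjusted 0.41), with CCT5 at 539 CPM in the siDDX24-1 library and 232 CPM in the siControl library (1.22, adjusted 1.16). CCT2, CCT3, CCT6A and TCP1 lay between 0.81 and 0.93, whereas CCT8, with 1216 CPM in the siDDX24-1 library and 1210 CPM in the siControl library, was at 0.01. CCT8 thus differed from its partners in the same ring. Of the prefoldin genes PFDN6 was at -0.81 (its exons overlap RGL2) and PFDN5 at -0.15.

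Heat shock protein genes had folds in both directions, also within the HSPA family. The cytosolic HSPA8 had 1453 CPM in the siDDX24-1 library and 628 CPM in the siControl library (1.21, adjusted 1.12), HSPH1, its exchange factor, 153 CPM with siDDX24-1 and 62.5 CPM with siControl (1.29, adjusted 1.08), and HSP90AA1 1830 CPM with siDDX24-1 and 846 CPM with siControl (1.11, adjusted 1.07), with exons that overlap WDR20. HSPD1, the mitochondrial chaperonin, was at 0.82. The stress-inducible HSPA1A was at 0.00 and HSPA1B at -0.28. As scaled, HSPA6 (-1.20, adjusted -0.94) and the small heat shock protein gene HSPB1 (-1.25, adjusted -0.80) were at least 2-fold lower. HSPB1 had 13.4 CPM with siDDX24-1 and 31.8 CPM with siControl. The list of 21 therefore had a median of 0.00 (adjusted 0.02) with 3 members higher and 2 lower as scaled. With the trend removed 3 were higher and none lower. Of the J-domain co-chaperones, DNAJA1 had 526 CPM in the siDDX24-1 library and 226 CPM in the siControl library (1.22) and DNAJB5 4.80 CPM with siDDX24-1 and 20.0 CPM with siControl (-2.04).

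Aminoacyl-tRNA synthetases, which load tRNAs with amino acids, were higher. Of 23 cytosolic synthetase genes and cofactors 21 had folds above 0, with a median of 0.36 on both scales. On both scales 4 (17.4%) were at least 2-fold higher, against 3.74% of all genes as scaled and 3.94% adjusted. FARSB, a subunit of the phenylalanine enzyme, had 92.6 CPM in the siDDX24-1 library and 31.5 CPM in the siControl library (log2 fold 1.56, adjusted 1.37), while its partner FARSA had 141 CPM with siDDX24-1 and 110 CPM with siControl (0.36, adjusted 0.79). IARS1, the isoleucine enzyme, had 361 CPM with siDDX24-1 and 143 CPM with siControl (1.33, adjusted 1.17). WARS1 (1.06) and the scaffold gene AIMP2 (1.04) have exons that overlap other genes. The 20 mitochondrial synthetase genes had a median of 0.40 (adjusted 0.45), with 1 at least 2-fold higher, MARS2, at 14.7 CPM in the siDDX24-1 library and 5.75 CPM in the siControl library.

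Other parts of the translation apparatus differed less. Initiation factors had 42 of 51 above 0 and none past 2-fold (median 0.26, adjusted 0.25), and mitochondrial ribosomal proteins a median of 0.18 (adjusted 0.24), or 0.05 as scaled without members that overlap other genes. Cytosolic ribosomal proteins lay on the other side, with a median of -0.21 (adjusted -0.11) and 50 of 84 counting intervals below 0, and the 1 member past 2-fold was RPL7L1 (adjusted fold 1.16), a relative of RPL7 and not a subunit of the mature ribosome. Enzymes that modify RNA had 6 of 86 members higher (6.98%, against 3.74% of all genes) and 1 lower (median 0.25, adjusted 0.21). Among the higher was ALKBH1, a demethylase of tRNA, with 27.6 CPM with siDDX24-1 and 10.7 CPM with siControl (1.36).

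Nucleotide synthesis genes held several higher members. Of 41 genes for purines and pyrimidines 6 (14.6%) were at least 2-fold higher, against 3.74% of all genes, and 1 lower. The list median, though, was 0.19 (adjusted 0.20). PRPS1, which makes the ribose phosphate used by both pathways, had 109 CPM in the siDDX24-1 library and 47.1 CPM in the siControl library (1.20, adjusted 1.10). The purine enzyme genes PFAS (1.10) and GART (1.06), the pyrimidine enzyme genes UMPS (1.14) and CAD (1.04), and RRM1 (1.02), the large subunit of ribonucleotide reductase, made up the rest. Exons of GART overlap SON. CAD had 118 CPM with siDDX24-1 and 57.3 CPM with siControl, and with the trend removed its fold was 1.35. The lower member was NME3 (-1.19, adjusted -0.52), whose exons overlap MAPK8IP3.

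Hypoxia response genes were lower in the siDDX24-1 library. These are induced by the HIF transcription factors when oxygen falls, and the list also holds the HIF subunits and their hydroxylases. Of 33 listed genes 26 had a counting interval below 0 and 9 (27.3%) were at least 2-fold lower, against 8.55% of all genes, with none at least 2-fold higher. The median was -0.72 as scaled and -0.62 adjusted, and 9 were at least 2-fold lower on the adjusted scale as well, against 6.12% of all genes. BHLHE40, a repressor shared with the circadian clock (chromosome 3, 4979116 to 4985323), had 128 CPM in the siDDX24-1 library and 906 CPM in the siControl library (log2 fold -2.82, 95% interval -2.89 to -2.75, adjusted -2.80). NDRG1 had 21.3 CPM with siDDX24-1 and 60.4 CPM with siControl (adjusted fold -1.25), and CA9, a carbonic anhydrase at the cell surface, 1.64 CPM with siDDX24-1 and 5.67 CPM with siControl (-1.74, adjusted -1.41). DDIT4, an inhibitor of mTORC1, had a fold of -1.47 and BNIP3L, a mitophagy receptor, 151 CPM with siDDX24-1 and 366 CPM with siControl (-1.28). The factors and regulators of the list lay elsewhere: HIF1A had 272 CPM in the siDDX24-1 library and 219 CPM in the siControl library (0.31), EPAS1 10.1 CPM with siDDX24-1 and 5.37 CPM with siControl (0.90), VHL a fold of 0.33 and EGLN1, the main oxygen-sensing hydroxylase, a fold of -0.16. VEGFA had 52.5 CPM with siDDX24-1 and 97.1 CPM with siControl (-0.89, adjusted -0.63). BHLHE41, CA9, LOX, ANKRD37 and BNIP3L have exons that overlap other genes, and over the members without overlap the median was -0.55 as scaled. Glycolysis genes had a median of -0.12 (adjusted -0.05), and the adjusted median turned to 0.20 without members that overlap other genes and to 0.08 with the GC content of the longest transcript, with SLC2A3, a glucose transporter gene, at -1.24.

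Genes of cholesterol synthesis and uptake were lower. SREBP2 activates this pathway when sterols are scarce, while INSIG proteins hold SREBP2 and its escort SCAP in the endoplasmic reticulum. Of 33 listed genes 8 (24.2%) were at least 2-fold lower and 1 higher as scaled, against 8.55% of all genes lower. The counts were the same when adjusted, against 6.12% of all genes lower, but not all the genes were the same. The median was -0.60 (adjusted -0.41). INSIG1 had 30.1 CPM in the siDDX24-1 library and 173 CPM in the siControl library (log2 fold -2.52, 95% interval -2.67 to -2.37, adjusted -2.49). Of the synthesis enzymes IDI1 had 54.6 CPM with siDDX24-1 and 164 CPM with siControl (-1.59, adjusted -1.78), MSMO1 61.7 CPM with siDDX24-1 and 151 CPM with siControl (-1.29), and MVD 25.8 CPM with siDDX24-1 and 72.7 CPM with siControl (-1.49, adjusted -0.89). HMGCS1 (-0.91), an early enzyme, was below 0, but SQLE (0.03) and CYP51A1 (0.22) were not, so the pathway was not lower at every step.

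Genes of sterol efflux, which LXR receptors activate, were lower as well: ABCA1 had 12.2 CPM with siDDX24-1 and 32.4 CPM with siControl (-1.40), and ABCG1 11.1 CPM with siDDX24-1 and 22.6 CPM with siControl (-1.02). MYLIP, a ubiquitin ligase gene that LXR also activates, had 10.3 CPM with siDDX24-1 and 23.9 CPM with siControl (-1.20). These LXR targets thus lay on the same side as the synthesis genes IDI1, MSMO1 and MVD. The regulators SREBF1, SREBF2 and SCAP had adjusted folds of -0.29, -0.28 and 0.35. Among fatty acid genes SCD, the stearoyl desaturase, had 787 CPM in the siDDX24-1 library and 2411 CPM in the siControl library (-1.61, adjusted -1.71), and MLXIPL, a glucose-responsive activator, 5.62 CPM with siDDX24-1 and 29.3 CPM with siControl (-2.37, adjusted -1.83). That list of 34 had 3 lower (8.82%, near the 8.55% of all genes) and 1 higher, with a median of -0.10 (adjusted -0.16).

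Circadian clock genes held lower members among the repressors and output factors, though not all repressors were lower. In the clock, CLOCK and BMAL1 activate genes with E-boxes, among them the PER and CRY repressors, the NR1D nuclear receptors and the PAR bZIP factor DBP. Of 24 listed genes 8 (33.3%) were at least 2-fold lower as scaled, against 8.55% of all genes, and 2 higher. When adjusted 8 were lower (33.3%, against 6.12% of all genes) and 3 higher, and the median was -0.31 (adjusted -0.18). PER1 had 71.7 CPM in the siDDX24-1 library and 378 CPM in the siControl library (log2 fold -2.40, 95% interval -2.49 to -2.30, adjusted -1.94). NR1D1 and NR1D2, repressors of BMAL1, had 8.01 and 8.36 CPM in the siDDX24-1 library and 40.2 and 35.8 CPM in the siControl library (-2.31 and -2.09, adjusted -2.01 and -2.30). BHLHE41 (-1.77), the repressors NFIL3 (-1.23) and CIART (-1.19), and DBP (-1.13, adjusted -0.63) followed BHLHE40 and PER1. Exons of PER1, NR1D1, BHLHE41 and DBP overlap those of other genes, whereas BHLHE40, NR1D2, NFIL3 and CIART share none.

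The core activators BMAL1, CLOCK and NPAS2 and the repressors PER2, PER3, CRY1 and CRY2 had small folds. BMAL1 had 6.17 CPM in the siDDX24-1 library and 6.51 CPM in the siControl library (-0.08, interval -0.52 to 0.37), CLOCK 56.8 CPM with siDDX24-1 and 45.0 CPM with siControl (0.33), NPAS2 31.2 CPM with siDDX24-1 and 38.8 CPM with siControl (-0.32). PER2 was at -0.26, PER3 at 0.19, CRY1 at -0.01 and CRY2 at -0.15, and the counting intervals of these 4 genes include 0. PER1 therefore stood apart from its relatives. The genes at least 2-fold higher were BMAL2, a relative of BMAL1, with a fold of 1.48 (interval 1.23 to 1.74, adjusted 1.29), and TIPIN, with 19.1 CPM with siDDX24-1 and 8.17 CPM with siControl (1.22). TIPIN and TIMELESS (0.98) protect replication forks in human cells and are no core part of the mammalian clock.

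**Figure D4:**
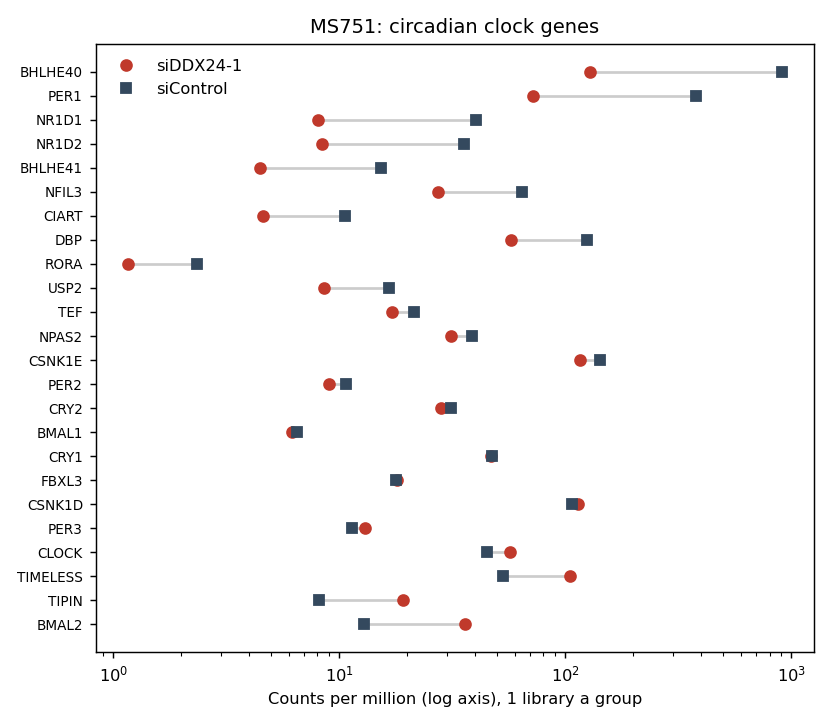
Level in CPM of the 24 listed circadian clock genes in the siDDX24-1 (red circles) and siControl (dark squares) libraries of MS751 on a log axis, ordered by fold with the lowest at the top. BHLHE40 (128 against 906 CPM) and PER1 (71.7 against 378 CPM) show wide gaps, the activators BMAL1 and CLOCK narrow ones, and TIPIN and BMAL2 are higher in the siDDX24-1 library.

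The E-box CACGTG, searched on both strands in the 250 bases before the RefSeq start, was present in 9.11% of the 9826 listed genes with a promoter entry and in 6 of 22 clock genes. It was in 4 of the 8 clock genes that were at least 2-fold lower. These 4 promoters are shown because their genes were lower, 5′ to 3′ on the gene's strand with the E-boxes in capitals (RefSeq, GRCh38.p14). BHLHE40 is at chr3:4979187-4979436 on the plus strand, BHLHE41 at chr12:26125038-26125287 on the minus strand, CIART at chr1:150282304-150282553 on the plus strand, and PER1 at chr17:8152405-8152654 on the minus strand. RefSeq starts can differ from those of the GENCODE gene models. The windows of BHLHE40 and PER1 lie inside their GENCODE genes (4979116 to 4985323 and 8140472 to 8156506).
PER1: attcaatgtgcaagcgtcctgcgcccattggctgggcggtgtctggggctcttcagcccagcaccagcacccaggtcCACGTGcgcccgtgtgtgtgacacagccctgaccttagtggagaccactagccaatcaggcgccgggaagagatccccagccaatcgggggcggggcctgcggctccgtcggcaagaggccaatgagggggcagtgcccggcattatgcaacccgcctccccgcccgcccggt
BHLHE40: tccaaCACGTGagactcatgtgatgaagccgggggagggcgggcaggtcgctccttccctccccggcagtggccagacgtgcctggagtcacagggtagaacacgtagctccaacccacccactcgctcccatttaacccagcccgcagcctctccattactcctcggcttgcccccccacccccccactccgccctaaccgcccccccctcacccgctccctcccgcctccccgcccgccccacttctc
BHLHE41: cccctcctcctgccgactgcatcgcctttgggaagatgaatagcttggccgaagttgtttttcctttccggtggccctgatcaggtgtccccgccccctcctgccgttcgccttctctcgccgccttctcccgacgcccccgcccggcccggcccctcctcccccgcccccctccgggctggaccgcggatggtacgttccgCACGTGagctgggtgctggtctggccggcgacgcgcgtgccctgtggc
CIART: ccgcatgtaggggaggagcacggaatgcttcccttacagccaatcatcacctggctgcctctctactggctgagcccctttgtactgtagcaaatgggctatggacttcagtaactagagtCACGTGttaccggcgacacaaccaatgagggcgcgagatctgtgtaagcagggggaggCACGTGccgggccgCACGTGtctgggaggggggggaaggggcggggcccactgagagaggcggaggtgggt
CIART held 3 copies and the others 1 each, at 173 bases before the RefSeq start in PER1, 245 in BHLHE40 and 48 in BHLHE41. The other clock genes with an E-box in this window were TEF (-0.33) and TIMELESS (0.98), so all but TIMELESS had folds below 0. Whether the E-box bears on the fold was not tested. No clock gene held the cAMP response element TGACGTCA, which 2.96% of all promoters did. A match is a description of letters and not evidence of binding.

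Genes of the endoplasmic reticulum held several lower members and none at least 2-fold higher. When unfolded proteins accumulate there, ATF6, IRE1 with XBP1, and PERK (EIF2AK3) induce folding and degradation genes. Of 45 listed genes 6 (13.3%) were at least 2-fold lower, against 8.55% of all genes, and none higher. Adjusted, 6 were lower (13.3%, against 6.12% of all genes), and the median was -0.12 (adjusted -0.16). HERPUD1, a part of the degradation complex, had 32.7 CPM in the siDDX24-1 library and 116 CPM in the siControl library (-1.82, adjusted -1.89). XBP1 had 45.2 CPM with siDDX24-1 and 131 CPM with siControl (-1.53, adjusted -1.56) and EIF2AK3 38.8 CPM with siDDX24-1 and 85.0 CPM with siControl (-1.13, adjusted -1.31). DNAJB9 (-1.65), DERL3 (-1.59) and the membrane-bound factor gene CREB3L1 (-1.55) were the others, and exons of DNAJB9 and DERL3 overlap other genes. The chaperone gene HSPA5 had 1156 CPM in the siDDX24-1 library and 1460 CPM in the siControl library (-0.34, adjusted -0.46). HSP90B1 (-0.10), CALR (-0.04) and PDIA3 (0.00) were near 0, while CANX (0.35), ATF6 (0.40) and EDEM3 (0.66) were above it.

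The endoplasmic reticulum stress element, CCAAT and CCACG separated by 9 bases on either strand, was in 0.153% of the 9826 promoters and in 7 of 41 genes of this list (17.1%). Of the lower genes XBP1 held it, 1 of 5 with an entry. Its promoter (chr22:28800570-28800819, minus strand) is shown beside that of HSPA5 (chr9:125241344-125241593, minus strand), which carries the same element at a fold of -0.34, with both parts of the element in capitals (RefSeq, GRCh38.p14).
XBP1: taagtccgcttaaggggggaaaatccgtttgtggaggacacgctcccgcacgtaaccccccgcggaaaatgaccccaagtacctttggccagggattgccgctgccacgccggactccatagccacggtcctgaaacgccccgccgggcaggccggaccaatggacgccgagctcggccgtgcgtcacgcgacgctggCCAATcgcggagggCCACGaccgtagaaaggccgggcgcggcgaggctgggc
HSPA5: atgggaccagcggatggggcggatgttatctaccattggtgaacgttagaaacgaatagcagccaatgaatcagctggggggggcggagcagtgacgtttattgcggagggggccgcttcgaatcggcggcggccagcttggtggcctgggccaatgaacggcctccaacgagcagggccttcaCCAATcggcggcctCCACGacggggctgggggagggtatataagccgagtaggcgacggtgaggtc
The element lay 52 bases before the start in XBP1 and 66 in HSPA5. The others that held it were CALR, CANX, CRELD2, ERO1B and HSP90B1, with folds from -0.12 to 0.35, so genes with the same letters had unlike folds. The sterol element TCACNCCAC was in 0.814% of promoters and in 1 of 26 cholesterol genes with an entry, SREBF2, and in none of the 6 that were at least 2-fold lower. Its absence from this window says nothing of the factor.

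ATF4 and its targets, which respond to amino acid shortage and other stresses, held many lower members. Of 31 listed genes 10 (32.3%) were at least 2-fold lower, against 8.55% of all genes, and none higher. Adjusted, 7 were lower (22.6%, against 6.12% of all genes), and the median was -0.51 (adjusted -0.24). ATF4 had 218 CPM in the siDDX24-1 library and 566 CPM in the siControl library (-1.38, adjusted -1.26). DDIT3, a pro-apoptotic factor, had a fold of -2.35, with exons that overlap MARS1, PPP1R15A, which restores translation, 54.5 CPM with siDDX24-1 and 213 CPM with siControl (-1.96, adjusted -1.74), and ATF3, a repressor, 13.8 CPM with siDDX24-1 and 43.1 CPM with siControl (-1.63). STC2 (-1.37), CHAC1 (-1.27) and the cysteine synthesis gene CTH (-1.32) were lower too. So was DDIT4 (-1.47), a member of this list that is also named above among the hypoxia genes. Other biosynthetic targets were closer to 0 or above it: ASNS, the asparagine synthetase gene, had 62.6 CPM in the siDDX24-1 library and 68.5 CPM in the siControl library (-0.13), PSAT1 319 CPM with siDDX24-1 and 266 CPM with siControl (0.26), MTHFD2 a fold of 0.07 and SLC7A11 a fold of 0.40.

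Several families of transcription factors held lower members. Over all genes, 8.55% were at least 2-fold lower as scaled and 6.12% adjusted. Of the Notch pathway, HES1, the repressor that Notch induces, had 80.8 CPM in the siDDX24-1 library and 560 CPM in the siControl library (log2 fold -2.79, 95% interval -2.88 to -2.71, adjusted -2.83). HEY1 had 22.9 CPM with siDDX24-1 and 48.3 CPM with siControl (-1.07) and HES4 37.3 CPM with siDDX24-1 and 143 CPM with siControl (-1.93, adjusted -0.89). RBPJ, the DNA-binding partner of Notch, was higher with 131 CPM with siDDX24-1 and 38.8 CPM with siControl (1.76, adjusted 1.58), while the receptor genes NOTCH1 (-0.06), NOTCH2 (-0.05) and NOTCH3 (-0.27) were close to 0. The 37 genes had 6 lower (16.2%) and 1 higher as scaled (median -0.19, adjusted 0.03). With the trend removed 3 were lower (8.11%) and 2 higher, so the list as a whole lay near the level of genes of like GC content.

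Of 20 KLF and SP factors 7 were at least 2-fold lower, 6 of them on the adjusted scale, and none was higher. All 7 were KLF genes. For all genes the shares lower were 8.55% as scaled and 6.12% adjusted. The median of the KLF and SP list was -0.31 (adjusted -0.26), and 8 of its 20 members had folds above 0 as scaled. KLF10 had 88.5 CPM in the siDDX24-1 library and 259 CPM in the siControl library (-1.55, adjusted -1.67), KLF9 36.2 CPM with siDDX24-1 and 82.9 CPM with siControl (-1.19), KLF11 16.8 CPM with siDDX24-1 and 47.6 CPM with siControl and KLF4 5.27 CPM with siDDX24-1 and 19.7 CPM with siControl (-1.88). The 34 HOX genes and cofactors had 6 lower (17.65%) and 2 higher as scaled but 3 lower (8.82%) and 1 higher adjusted (medians -0.44 and -0.30). HOXA5 had 10.1 CPM with siDDX24-1 and 37.8 CPM with siControl (-1.90). HOXC6 was the highest at 2.64, with exons that overlap HOXC4 and HOXC9. Forkhead genes had 4 of 22 lower as scaled (18.2%) and 2 with the trend removed (9.09%), with a median of -0.43 (adjusted -0.34). Of the feedback inhibitors of MAP kinase signalling, 6 of 24 dual-specificity phosphatase and Sprouty genes were at least 2-fold lower on each scale. The shares of all genes were 8.55% as scaled and 6.12% adjusted, and this list had a median of -0.36 (adjusted -0.17). DUSP6, which inactivates ERK, had 266 CPM in the siDDX24-1 library and 649 CPM in the siControl library (-1.29, adjusted -1.23), SPRY1 121 CPM with siDDX24-1 and 329 CPM with siControl (-1.44) and DUSP1 31.7 CPM with siDDX24-1 and 101 CPM with siControl (-1.67). DUSP1 and several KLF genes are also known as early response genes, the class set aside above.

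Among genes of the cell surface, proteases were lower with and without the GC trend. The list joins serine proteases, matrix metalloproteinases and the ADAM and ADAMTS families, and its pattern also takes calpain 12. Of 54 genes 13 (24.1%) were at least 2-fold lower as scaled, against 8.55% of all genes, and none higher. With the trend removed 15 (27.8%) were lower, against 6.12% of all genes (medians -0.49 and -0.35). PRSS8, a membrane serine protease of epithelia (prostasin), had 1.51 CPM in the siDDX24-1 library and 14.7 CPM in the siControl library (-3.22, adjusted -2.72). ADAMTS10 had 3.15 CPM with siDDX24-1 and 14.7 CPM with siControl (-2.19), ADAM8 3.36 CPM with siDDX24-1 and 13.6 CPM with siControl, and ADAMTSL4, a relative without protease activity, 31.6 CPM with siDDX24-1 and 97.1 CPM with siControl (-1.62). Apart from ADAMTSL4, the lower members had at most 7.12 CPM in the siDDX24-1 library (PLAT), and among those averaging 5 CPM or more the adjusted median was -0.17. Their inhibitors were lower by less, with 13 of 16 serpin, TIMP and cystatin genes below 0 (median -0.40, adjusted -0.37). TIMP1 had 1191 CPM in the siDDX24-1 library and 1971 CPM in the siControl library (-0.73). None of the inhibitors was at least 2-fold lower, and SERPINB8 was higher (2.25), with exons that overlap HMSD.

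Of 15 S100 and annexin genes, which encode calcium-binding proteins, 5 (33.3%) were at least 2-fold lower as scaled and 5 when adjusted. Over all genes the shares were 8.55% and 6.12%. The list median was -0.30 (adjusted -0.22), but -0.06 as scaled among those averaging 5 CPM or more. Of the lower members S100A16 had 1.03 CPM with siDDX24-1 and 5.98 CPM with siControl, and ANXA9 1.99 CPM with siDDX24-1 and 4.77 CPM with siControl. S100A10 had 229 CPM in the siDDX24-1 library and 492 CPM in the siControl library (-1.11, adjusted -1.15) and S100A4 33.8 CPM with siDDX24-1 and 101 CPM with siControl (-1.58). Desmosome and squamous differentiation genes had 14 of 41 members listed, 6 of them at least 2-fold lower (median -0.82, adjusted -0.42). ELF3, an epithelial ETS factor, had 1.23 CPM with siDDX24-1 and 7.56 CPM with siControl (-2.55) and SFN, which encodes 14-3-3 sigma, 2.74 CPM with siDDX24-1 and 12.7 CPM with siControl (-2.18). These members lay near the lower limit of the table, at a median level of 6.18 CPM against 37.5 CPM for all genes, and among those averaging 5 CPM or more the medians were -0.40 and -0.11. The desmosome list is thus a list of scarce transcripts in these cells.

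Ion channels and receptors held lower members whose number depended on the GC trend. Of 76 ion channel genes 20 (26.3%) were at least 2-fold lower as scaled and 13 (17.1%) with the trend removed (medians -0.51 and -0.20). Over all genes the shares were 8.55% and 6.12%. The chloride transporter gene CLCN5 had 4.66 CPM in the siDDX24-1 library and 26.6 CPM in the siControl library (-2.50, adjusted -2.63), and the sodium channel subunit gene SCNN1D 2.67 CPM with siDDX24-1 and 19.7 CPM with siControl (-2.85, adjusted -2.20). LRRC8B, a subunit of volume-regulated anion channels, was higher, with 61.5 CPM with siDDX24-1 and 27.0 CPM with siControl (1.19). Of 56 G protein-coupled receptors 8 (14.3%) were lower as scaled and 4 (7.14%) adjusted (medians -0.33 and -0.23). GIPR, the receptor of an incretin hormone (chromosome 19, 45668244 to 45683724), had 23 counts in the siDDX24-1 library and 395 in the siControl library (-4.18, interval -4.92 to -3.64, adjusted -3.82), a gap far wider than that of other receptors in the list.

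Other surface and matrix families had fewer lower members once the GC trend was removed. All 13 ephrin and Eph receptor genes had folds below 0 (median -0.53), yet with the trend removed 7 of 13 lay above 0 and the median was 0.01 (-0.12 among those averaging 5 CPM or more). EFNA1 (-1.30, adjusted -1.11) and EFNB3 (-1.29), both ligands, were lower on both scales, whereas the receptor gene EPHA2 had 137 CPM in the siDDX24-1 library and 141 CPM in the siControl library (-0.04). Laminins, collagens and other basement membrane genes had 13 of 43 (30.2%) lower as scaled, against 8.55% of all genes. Adjusted, 8 (18.6%) were lower, against 6.12% of all genes (medians -0.62 as scaled and -0.15 adjusted). COL1A1 had 23.7 CPM in the siDDX24-1 library and 86.2 CPM in the siControl library (-1.86, adjusted -1.45) and COL27A1 15.4 CPM with siDDX24-1 and 56.0 CPM with siControl (-1.86), while COL3A1 was at 0.39. Semaphorins and plexins had 5 of 20 lower as scaled and 3 adjusted (medians -0.40 and -0.16, and -0.05 adjusted without members that overlap other genes), with the guidance ligand gene SEMA3B at 19.5 CPM with siDDX24-1 and 83.7 CPM with siControl (-2.10). TNF receptors and ligands had 4 of 18 lower as scaled and none adjusted (medians -0.31 and -0.15, and -0.38 adjusted among those averaging 5 CPM or more). SOX, TBX and GATA factors had a median of -0.28 as scaled and 0.06 adjusted.

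**Figure D5:**
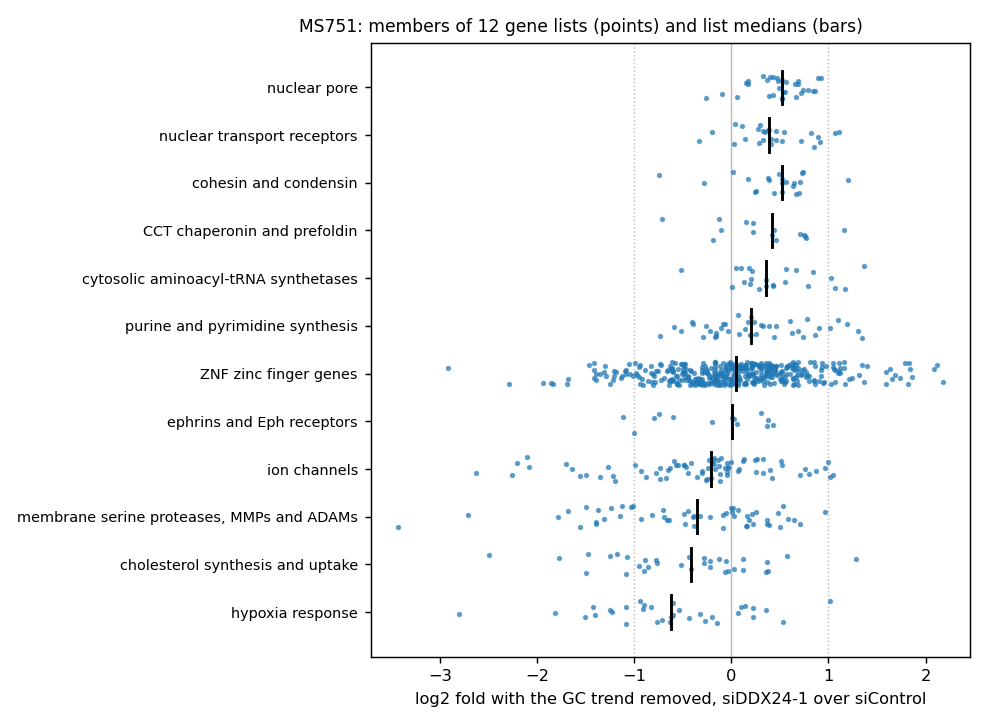
GC-adjusted log2 fold of every member (points, with random vertical scatter) of 12 gene lists in MS751, with list medians as bars and dotted lines at 2-fold. Nucleoporin genes cluster around 0.52 with none past 2-fold, zinc finger genes spread widely around 0.05, and hypoxia, cholesterol and protease genes have medians of -0.62, -0.41 and -0.35 with tails below -2.

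Several other families had few members past 2-fold, or about as many in each direction. The 401 ZNF zinc finger genes had 34 higher and 32 lower (medians 0.05 on both scales), with ZNF10 at -2.83 and ZNF45 at 2.26. The share higher was 8.48% on both scales, above the 3.74% of all genes as scaled and 3.94% adjusted. The share lower was 7.98% as scaled and 7.48% adjusted, against 8.55% and 6.12% of all genes. These genes had a median level of 12.9 CPM, against 37.5 CPM for all genes. Exons of ZNF10 overlap another gene. The 12 listed subunits of RNA polymerase II had none past 2-fold, nor had the 81 nuclear genes of oxidative phosphorylation (median -0.11, adjusted -0.12) or the 13 mitochondrially encoded genes (0.18, adjusted 0.02). Class I MHC and antigen processing genes had 1 of 17 lower (median -0.08, adjusted -0.03). RAB small GTPases had 5 of 51 lower and 2 higher (median 0.00). The lower ones included RAB43 (-3.31) and RAB3A (-2.15), whose exons overlap other genes, and the higher ones RAB31, an endosomal GTPase, with 81.1 CPM in the siDDX24-1 library and 18.1 CPM in the siControl library (2.16). Proteasome subunits had a median of 0.25 (adjusted 0.17) and 1 member at least 2-fold higher, the activator gene PSME3 (2.52), whose exons overlap BECN1.

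Single genes at the ends of the adjusted scale came from many families. Among genes averaging 5 CPM or more that share no exon with another gene, the highest adjusted fold was that of ZBTB38, a zinc finger repressor that binds methylated DNA (chromosome 3, 141324213 to 141449792), with 409 counts in the siDDX24-1 library and 19 in the siControl library (log2 fold 4.22, interval 3.62 to 5.03, adjusted 4.07). IER2, GNA11, MED29, PDPK1, RC3H1, KIRREL1, POP1, KAT6A and TEAD1 followed, between 2.27 and 2.96. GNA11, a G protein alpha subunit, had 95.3 CPM in the siDDX24-1 library and 17.9 CPM in the siControl library (2.41), TEAD1, the DNA-binding partner of YAP, 102 CPM with siDDX24-1 and 19.7 CPM with siControl (2.37), and KAT6A, a histone acetyltransferase, a fold of 2.42. IER2 is an immediate early gene and stood opposite to most of its class. The lowest were the nuclear receptors NR4A2, NR4A3 and NR4A1, with GIPR, RNF125, FOSB, HES1, BHLHE40, GOLGA6L10 and PRSS8, between -4.39 and -2.72. RNF125, a ubiquitin ligase that limits antiviral signalling, had 28 counts in the siDDX24-1 library and 240 in the siControl library (-3.20, adjusted -3.39). GOLGA6L10 belongs to a family of near-identical copies, and its 20 counts with siDDX24-1 and 116 with siControl are uncertain for that reason.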

How the data were processed

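RNA-seq read counts per gene were analysed for 2 MS751 libraries, siDDX24-1 and siControl. The authors deposited whole-number counts per Ensembl gene. HISAT2 2.0.4, StringTie 1.3.4d and fastp 0.23.2 are named in the submitters' processing notes, with the build GRCh38.p12 (hg38). Which tool counted reads, whether strand was used and which gene models were applied is not stated in those notes or the labels, so reads of overlapping genes cannot be told apart. The 12110 rows held 73 identical copies of 66 repeated identifiers, which were dropped. Library totals were 14664797 (siDDX24-1) and 13160487 (siControl).

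CPM are counts per 1000000 of the TMM-scaled sum of listed counts. Log2 CPM came from edgeR 4.0.16 (R 4.3.3) with TMM factors (0.996 and 1.00 for siDDX24-1 and siControl) and a prior count of 1, and the filter of a mean of at least 1 CPM removed no gene. All genes past 2-fold were counted, with no test. The GC trend was a cubic regression spline (mgcv 1.9.3, basis of 10) on the mean GC content of the gene's GENCODE 29 transcripts, available for 12017 genes. Symbols came from a table of gene names (12028) or GENCODE (9), and 3841 genes share exons with another protein-coding gene. Depth limits the scarcest genes, with 14 counts at the lowest. Amplified reads without molecular identifiers are not independent, so intervals can be too narrow.

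The comparison and the gene lists were chosen with earlier results of these data known, and some list patterns were corrected after their members' values were seen. Named genes are DDX24, up to 4 members per list past 2-fold with an adjusted fold of at least 1.5-fold in the same direction and at least 50 counts in a library, and the 10 highest and lowest adjusted folds. Other members, named to show the range of a list, were chosen after their values were seen. Results for some genes are not reported here. The method was tested on simulated counts. Alternatives were other scalings (DESeq2 1.42.0 among them), a prior count of 5, other filters, and other ways to remove the trend.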

Additional observations from a re-analysis of the deposited data

How the results depend on the processing

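The 4 counts of genes past 2-fold stayed within 1.5 times their value under each alternative that was run (table totals, DESeq2 size factors, a prior count of 5, only genes averaging 5 CPM or more, no filter, and other ways to remove the GC or length trend). Without removal of the GC trend, the number higher ranged from 410 to 522 and the number lower from 819 to 1047. These ranges include a setting in which the length trend alone was removed. With the GC trend removed the number higher ranged from 389 to 474 and the number lower from 592 to 810. DDX24 lay between -1.22 and -1.20 as scaled and between -1.28 and -1.23 adjusted. Of 1755 recomputed list medians 1690 moved by less than 0.1 on the log2 scale and 63 by more. The other 2, among lists whose median was at least 0.1 in size, changed sign when members whose exons overlap another gene were left out: the adjusted median was -0.22 for tubulins and -0.0726 for integrins and partners, against 0.13 and 0.14 over all members. Smaller medians also changed sign in that setting, among them the adjusted ones of glycolysis (0.20), tight junctions (0.17) and RNA polymerase II subunits (-0.11). The cause was not tested. With 1 library a group no replicate could be left out, and counting depth limits genes near 14 counts most. No paired analysis was possible because each group held 1 library.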

Other observations

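Genes that shorten mRNA tails included lower members. BTG1, which recruits the deadenylase, had 36.4 CPM in the siDDX24-1 library and 167 CPM in the siControl library (log2 fold -2.20, adjusted -2.30), and its relative TOB1 53.3 CPM with siDDX24-1 and 112 CPM with siControl (-1.07, adjusted -1.22). The list of 32 had 3 lower as scaled (9.38%), near the 8.55% of all genes, and none higher. Adjusted, 5 were lower (15.6%, against 6.12% of all genes), and the median was 0.14 (adjusted 0.03). In autophagy GABARAPL1, of the family that tags autophagosomes, had 11.5 CPM in the siDDX24-1 library and 55.7 CPM in the siControl library (-2.27, adjusted -2.24). ATG16L1 had 34.8 CPM with siDDX24-1 and 12.1 CPM with siControl (1.52, adjusted 1.54). That list of 37 had 2 lower (5.41%, against 8.55% of all genes) and 1 higher. Of the BCL2 family the death-promoting BMF had 6.85 CPM in the siDDX24-1 library and 37.4 CPM in the siControl library (-2.44, adjusted -2.11) and BBC3, a p53 target, a fold of -1.98 (adjusted -1.39). BCL2L2, of the survival-promoting members, was higher (1.66, adjusted 1.97), with exons that overlap PPP1R3E. The family of 17 had 2 lower and 1 higher as scaled and 3 lower and 2 higher adjusted (medians -0.10 and -0.04). MDM4, an inhibitor of p53, had 39.5 CPM with siDDX24-1 and 11.3 CPM with siControl (1.79, adjusted 1.61).

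Elongation factors of RNA polymerase II held 2 members past 2-fold in opposite directions, AFF1 with 8.29 CPM in the siDDX24-1 library and 45.5 CPM in the siControl library (-2.45) and CCNT2, a cyclin of P-TEFb, with 27.7 CPM with siDDX24-1 and 7.94 CPM with siControl (1.79). Actins and their regulators had 7 of 74 lower (9.46%) and 4 higher as scaled, near the 8.55% of all genes lower. Adjusted, 4 were lower (5.41%, against 6.12% of all genes) and 2 higher. Among the lower were ESPN (-3.30), whose exons overlap TNFRSF25, and the myosin gene MYO15B with 6.78 CPM in the siDDX24-1 library and 54.0 CPM in the siControl library (-2.98). Of the higher cytoskeleton genes TPM4, a tropomyosin gene, had 796 CPM in the siDDX24-1 library and 239 CPM in the siControl library (1.74, adjusted 1.72), and VCL, which encodes vinculin, 1347 CPM with siDDX24-1 and 465 CPM with siControl (1.54, adjusted 1.47), with exons that overlap AP3M1. Of the tight junction genes OCLN had 78.4 CPM in the siDDX24-1 library and 20.6 CPM in the siControl library (1.93) and TJP3 16.2 CPM with siDDX24-1 and 73.2 CPM with siControl (-2.17). Among membrane traffic genes the SNARE gene STX6 had 40.8 CPM in the siDDX24-1 library and 158 CPM in the siControl library (-1.95, adjusted -2.10). GRB2, an adaptor of receptor tyrosine kinases, had 250 CPM in the siDDX24-1 library and 75.2 CPM in the siControl library (1.73, adjusted 1.70).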
